A study of Homo sapiens with 6 samples.

Results

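Transcripts of 10 genes of the AP-1 family and its close relatives (JUN, JUNB, JUND, FOS, FOSB, FOSL1, FOSL2, ATF3, BATF3 and MAFF) were compared between HCT116 cells treated with a STRIP2 short interfering RNA and control cells. The genes were taken by symbol from a table of 61806 genes, and all 10 were found, each as 1 row. They were chosen by earlier results on the same si-STRIP2 against si-NC contrast, so that their levels and differences are given here as a description, with no p-value for any of them. HCT116 is a human colorectal carcinoma line. Per the labels, 3 libraries came from si-NC cells (genotype wildtype) and 3 from si-STRIP2 cells (genotype STRIP2 knockdown), all grown with serum in the same medium. The sequence and number of the short interfering RNAs and the time after transfection are not given in the sources used here, and the labels do not tell if replicates were grown apart. P-values therefore measure the spread between these libraries, which may be technical.

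AP-1 is a dimer of basic leucine zipper proteins. A Jun protein pairs with itself, with a Fos protein or with a relative such as an ATF or BATF protein, and the dimer binds short palindromic DNA words in promoters and enhancers. Many of these genes are immediate early genes, whose transcripts appear within minutes of a growth factor or stress signal through MAP kinases and decay quickly. In colorectal epithelium AP-1 is known as an output of MAP kinase signalling.

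The depth was similar among libraries, with total counts from 17184963 to 21721218 per library. Mitochondrial genes took from 4.88% to 8.88% of counts, si-NC replicate 3 being the highest and si-NC replicate 2 the lowest. Counts differed more between si-NC libraries (chi-square per degree of freedom from 4.89 to 16.7 by pair) than between si-STRIP2 libraries (2.14 to 2.27). STRIP2 itself was at 3.59 ± 0.347 FPKM in control libraries and 2.61 ± 0.0929 FPKM after knockdown (SD, n = 3), a remaining level of 72.6%. FPKM is fragments per kilobase of exon scaled to the library total. The epithelial markers EPCAM, KRT8, KRT18, KRT19 and CDH1 each had at least 23.99 FPKM in every library, whereas VIL1, of the intestinal brush border, was at most 0.03. Markers of other cell types were near 0: the 4 leukocyte markers summed to at most 0.23 FPKM and the 3 endothelial markers to at most 0.1 in any library. Of the 4 fibroblast markers, COL1A1 was at 1.89 to 2.55 FPKM, and COL1A2 and DCN were at 0 in every library.

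The start sites of these genes carry related words, shown because AP-1 and CREB/ATF dimers are known to bind them. The RefSeq promoter table (GRCh38.p14, 250 bases before to 50 after each start) held 10 promoters for 8 of the genes, and FOSL1 and BATF3 had no entry. Each line is a stretch of 30 bases on the strand of the gene, 5′ to 3′, and capitals mark TGACATCA, TGACGTCA or, where neither is present, TGACG.
JUN: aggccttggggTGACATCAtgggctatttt
ATF3: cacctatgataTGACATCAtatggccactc
JUND: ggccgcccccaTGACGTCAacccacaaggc
MAFF: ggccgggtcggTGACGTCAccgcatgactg
FOS: ggttgagcccgTGACGtttacactcattca
FOSB: caaggggcgggTGACGtaagcaggggggcg
FOSL2: gagtctggggtTGACGtgagtgaatccaca
JUNB: cttcctgacagTGACGcgagccgcctcctc

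The 8-base word TGACATCA starts 67 bases before the start of JUN (chr1:58784096-58784125, minus strand, for the stretch shown). It also starts 123 bases before 1 of the starts of ATF3 (chr1:212565273-212565302, plus strand). It was found on either strand in 2 of the 10 member promoters and in 2.61% of the 35116 promoters of the table. The palindrome TGACGTCA lies 200 bases before the start of JUND (chr19:18281804-18281833, minus strand) and 54 bases before that of MAFF (chr22:38201929-38201958, plus strand), in 1.85% of all promoters. The shorter TGACG, which TGACGTCA contains, was in 7 of the 10 member promoters against 24.6% of all promoters. It begins 64 bases before the start of FOS (chr14:75278753-75278782, plus strand), 60 before FOSB (chr19:45467925-45467954, plus strand), 66 before FOSL2 (chr2:28392781-28392810, plus strand) and 137 before JUNB (chr19:12791338-12791367, plus strand). The classical AP-1 word TGAGTCA was in 1 member promoter, that of FOSL2, where it lies just after the start, and in 4.95% of all promoters. The TATAAA word was in 4 of the 10 member promoters and in 11.5% of all promoters. It lies 33, 30 and 31 bases before the starts of FOS, FOSB and JUNB and 230 before another start of ATF3. No CArG box, the word bound by serum response factor, was found in these windows (1.29% of all promoters). These matches describe letters and not bound sites.

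By FPKM, JUND had the highest level of the 10 genes in si-NC cells and BATF3 the lowest. Orders between genes, and the sums and shares of FPKM given below, depend on the deposited exonic sizes. These were 1929 bases for JUND and 3186 for FOS. By mean FPKM the order was JUND (27.7), JUNB (25.0), FOS (22.1), FOSL1 (20.8), ATF3 (15.3), JUN (14.8), FOSL2 (8.72), MAFF (3.56), FOSB (3.03) and BATF3 (0.623). The FPKM ranges of JUND and JUNB, of JUNB and FOS, of FOS and FOSL1, of ATF3 and JUN, and of MAFF and FOSB overlapped. Of these pairs, only JUNB and FOS kept 1 order in each library (24.63, 23.77 and 26.58 against 20.53, 19.6 and 26.06 FPKM). In si-STRIP2 cells the order was FOSL1 (27.7), JUNB (19.8), JUND (16.5), ATF3 (7.93), FOSL2 (7.09), FOS (5.47), JUN (2.42), MAFF (1.75), BATF3 (0.473) and FOSB (0.340). There only JUNB and JUND overlapped in range among neighbours, though JUNB was the higher in each library. FOSL1 stood first in place of JUND.

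**Figure D1:**
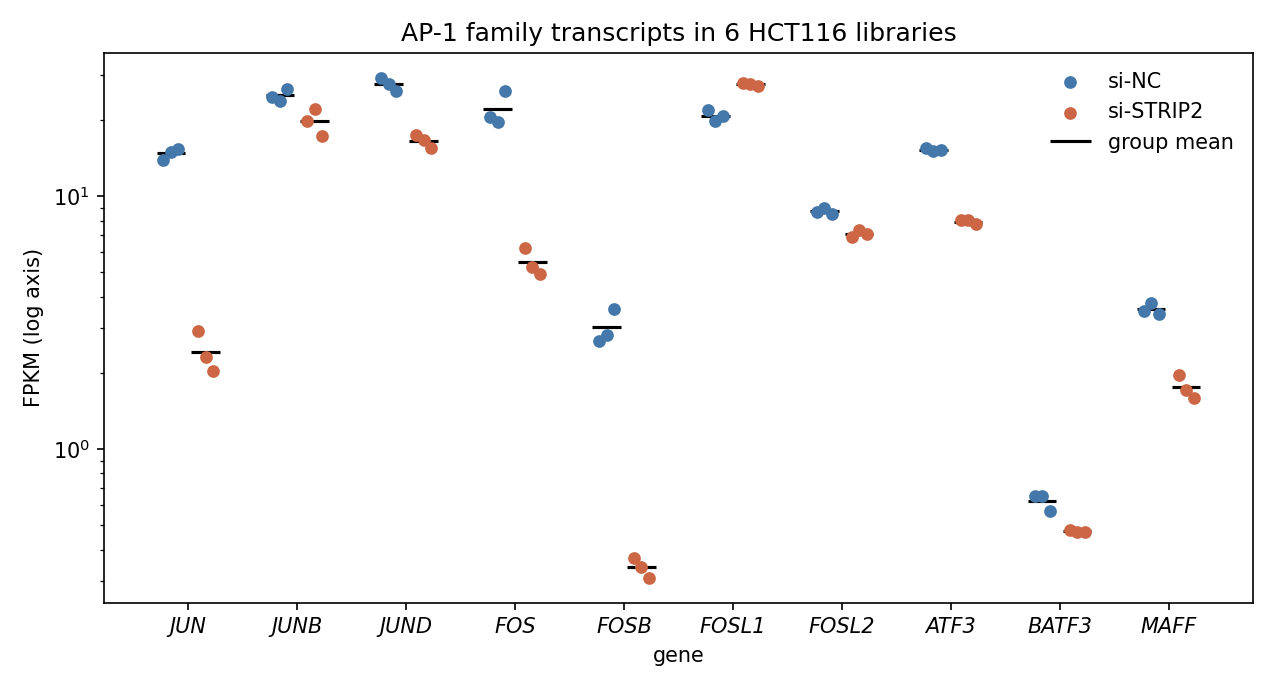
FPKM (log axis) of each of the 10 genes in the 3 si-NC and 3 si-STRIP2 libraries, 1 point per library and a line at each group mean. The widest gaps between groups are those of FOSB (3.03 against 0.340), JUN (14.8 against 2.42) and FOS (22.1 against 5.47), and only FOSL1 has its si-STRIP2 points above its si-NC points.

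All 10 genes passed the filter on low counts. The FPKM ranges of the 2 groups did not overlap for any of the 10, where 58.6% of the 15687 tested genes had groups that did not overlap. edgeR's quasi-likelihood test called 8 of them lower and 1 higher at an adjusted p under 0.05, with BATF3 not called. Over all tested genes, 27.0% were called lower, 27.8% higher and 54.8% in either direction, so that a call alone is common in these data. Of the 10, 4 (FOSB, JUN, FOS and MAFF) were called with a level at least 2-fold lower, a size reached by 2.91% of tested genes. Since the genes were chosen on this contrast, nothing is read from these counts. The median log2 fold change was -0.85 over the 10 genes and 0.014 over all tested genes. In these bulk samples, fewer cells with a transcript and less of it per cell cannot be told apart.

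JUN encodes the founding member of AP-1, a Jun protein that pairs with Fos proteins. It had 13.89, 15 and 15.41 FPKM in si-NC and 2.92, 2.32 and 2.03 FPKM in si-STRIP2. Every si-STRIP2 library lay below 3 FPKM and every si-NC library above 13. The level that remained was 16.4% of control, with a log2 fold change of -2.60 (standard error 0.082). Its longest coding transcript in GENCODE 29 has a single exon. The deposited gene spans chr1:58776845-58784048 (minus strand) with 3624 exonic bases, fewer than the span. No other gene of the table overlaps it.

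JUNB, a Jun protein known to oppose JUN at some promoters, had 24.63, 23.77 and 26.58 FPKM in si-NC and 19.76, 22.19 and 17.36 in si-STRIP2. The groups came within 2 FPKM of each other, and the log2 fold change was -0.34 (standard error 0.065). Its neighbour HOOK2 overlaps it on the opposite strand and held 104% as many counts. Whether reads were counted by strand is not given in the sources used here, and whether the 2 genes shared reads was not tested. HOOK2 was not called (edgeR adjusted p = 0.0527, log2 fold change 0.15 ± 0.065 standard error).

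JUND, a Jun protein present in many resting cell types, had 29.31, 27.85 and 25.97 FPKM in si-NC and 17.39, 16.66 and 15.53 in si-STRIP2. All si-STRIP2 libraries lay below all si-NC libraries, at 59.6% of control on average (log2 fold change -0.75, standard error 0.058). The 3 Jun genes thus differed in how much of the control level was left: 16.4% for JUN, 59.6% for JUND and 79.1% for JUNB.

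The sum of the Jun transcripts was 67.5 ± 0.739 FPKM in si-NC and 38.7 ± 3.34 FPKM in si-STRIP2 (SD, n = 3). JUN made up 20.5% to 22.7% of that sum in the si-NC libraries and 5.64% to 7.29% in the si-STRIP2 libraries. The share of JUNB went from 37.0% ± 1.83 to 51.0% ± 2.54, while that of JUND was 41.1% ± 2.58 and 42.8% ± 2.07 (SD, n = 3), whose ranges overlapped.

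FOS, the classical immediate early gene of the family, had 20.53, 19.6 and 26.06 FPKM in si-NC and 6.25, 5.22 and 4.94 in si-STRIP2. Replicate 3 of si-NC stood above the others, and its FOSB value was likewise the highest of its group. The remaining level of FOS was 24.8% (log2 fold change -2.01, standard error 0.084). FOSB, whose splice form ΔFosB is the long-lived one, had 323, 271 and 342 counts in si-NC and 39, 33 and 30 counts in si-STRIP2. Its FPKM was 2.68, 2.82 and 3.58 in si-NC against 0.37, 0.34 and 0.31 in si-STRIP2, the lowest remaining share of the 10 genes, at 11.2% (log2 fold change -3.13, standard error 0.144). ERCC1 overlaps FOSB on the opposite strand with 367% as many counts, and ERCC1 was higher in si-STRIP2 (edgeR adjusted p = 2.58e-05, log2 fold change 0.32 ± 0.060 standard error). Whether the 2 genes shared reads was not tested.

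FOSL1 encodes FRA1, a Fos protein without the strong activation domain of FOS, and was the exception in direction. It had 21.81, 19.81 and 20.66 FPKM in si-NC and 28.08, 27.77 and 27.35 in si-STRIP2. The lowest si-STRIP2 library lay above the highest si-NC library, at 134% of control (log2 fold change 0.41, standard error 0.054). No other gene of the table overlaps FOSL1. FOSL2, which encodes FRA2, had 8.64, 9.01 and 8.51 FPKM in si-NC and 6.86, 7.32 and 7.09 in si-STRIP2, at 81.3% of control (log2 fold change -0.30, standard error 0.049). Its groups were separate but close.

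Within the Fos transcripts the order changed. FOS held 38.3% to 44.3% of the summed Fos FPKM in the si-NC libraries and 12.4% to 15.04% in the si-STRIP2 libraries. FOSL1 held 38.1% ± 2.79 in control libraries and 68.3% ± 0.674 after knockdown (SD, n = 3). FOSL2 stayed at 16.05% ± 1.56 and 17.5% ± 0.828, with overlapping ranges, and FOSB went from 5.53% ± 0.547 to 0.836% ± 0.0546. The sum of the 4 Fos genes was 54.6 ± 3.87 FPKM in si-NC and 40.6 ± 0.935 FPKM in si-STRIP2 (SD, n = 3).

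**Figure D2:**
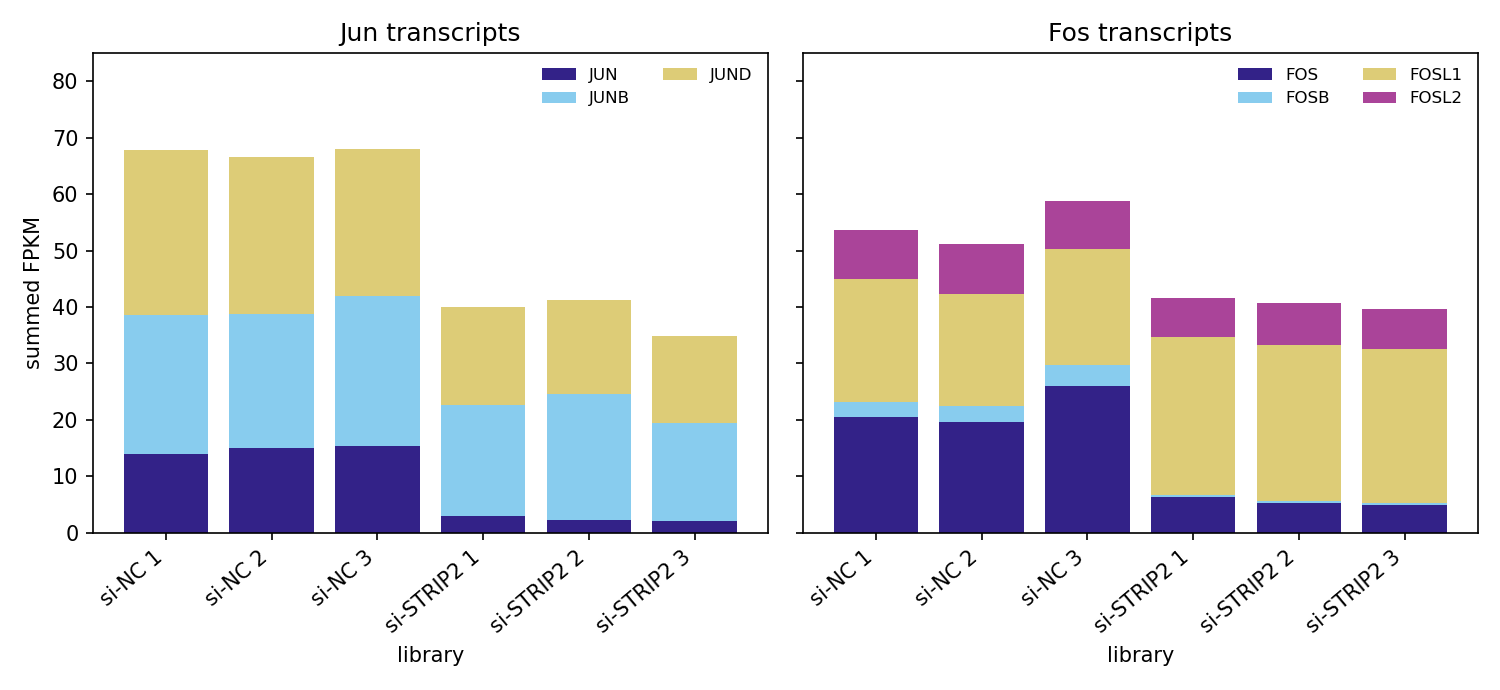
Summed FPKM of the 3 Jun genes (left) and the 4 Fos genes (right) in each of the 6 libraries, stacked by gene. The Jun sum goes from 67.5 to 38.7 FPKM on average, with the share of JUN going from 21.9% to 6.25%, and FOSL1 takes 68.3% of the Fos sum in si-STRIP2 against 38.1% in si-NC.

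ATF3, a stress-induced ATF protein that pairs with Jun proteins, had 15.52, 15.01 and 15.27 FPKM in si-NC and 8.05, 8.01 and 7.73 in si-STRIP2. The SD was 0.255 FPKM in si-NC and 0.174 FPKM in si-STRIP2, and 51.9% of the control level remained (log2 fold change -0.95, standard error 0.052). BATF3 lies near ATF3 on chromosome 1, 65639 bases further along and on the opposite strand. Between them are 4 genes, none of which was tested. BATF3, best known from dendritic cells, had 36, 29 and 25 counts in si-NC and 23, 21 and 21 in si-STRIP2. Its FPKM was 0.65, 0.65 and 0.57 against 0.48, 0.47 and 0.47, and at this depth the log2 fold change of -0.40 had a standard error of 0.252. MAFF, a small Maf protein without an activation domain, had 3.5, 3.78 and 3.41 FPKM in si-NC and 1.96, 1.71 and 1.59 in si-STRIP2. That is 49.2% of control (log2 fold change -1.02, standard error 0.090), and PLA2G6, which overlaps it on the opposite strand, held 62.9% as many counts and rose (edgeR adjusted p = 0.0262, log2 fold change 0.27 ± 0.104 standard error).

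**Figure D3:**
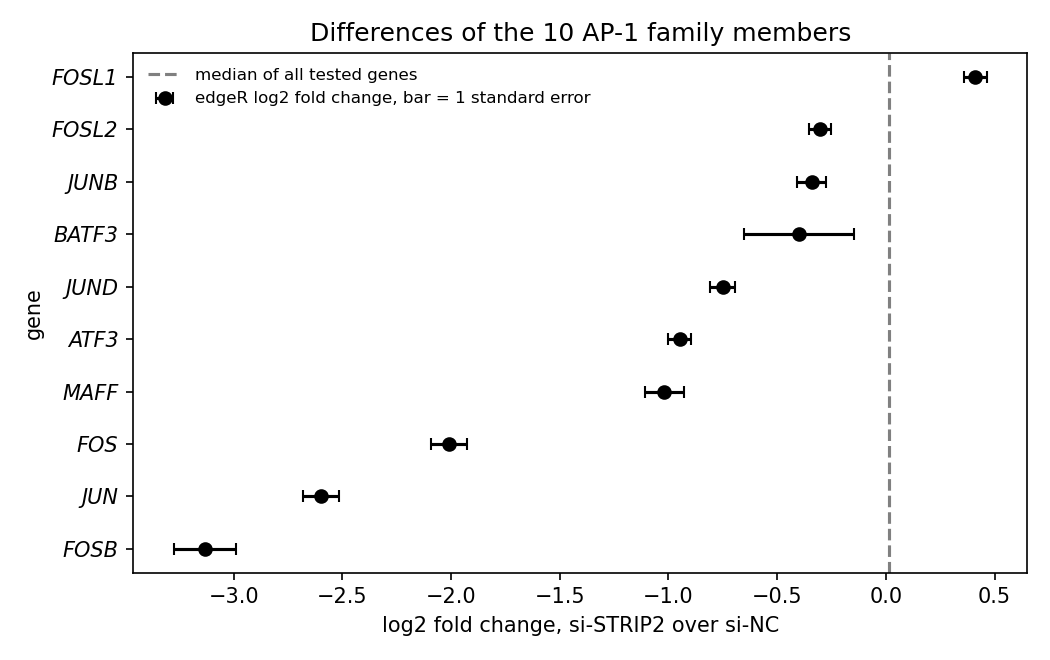
Log2 fold change (si-STRIP2 over si-NC) of the 10 genes from the edgeR fit, with bars of 1 standard error and a dashed line at the median of all tested genes (0.014). FOSB, JUN and FOS lie lowest at -3.13, -2.60 and -2.01, and FOSL1 is the one gene above the line, at 0.41.

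The structure of the 10 transcripts varied. In GENCODE 29, the longest coding transcript of JUN, of JUNB and of JUND has a single exon, as in 1.902% of 12618 tested protein-coding genes. The others have 3 or 4 exons in theirs. The AU-rich pentamer ATTTA, a word of short-lived transcripts, occurs 9 times in the 3′ untranslated region of FOSL2, 5 times in FOS, 4 times in MAFF and 3 times in JUN, FOSB and ATF3, with 2 in JUNB and 1 in JUND, FOSL1 and BATF3. The median over those 12618 genes was 2, and 46.2% of them had at least 3. These counts were not scaled by length. The untranslated region had 4864 bases in FOSL2, 806 in FOS, 500 in JUNB and 373 in BATF3, with a median of 1319 over those genes. The nonamer TTATTTATT was present in FOS, FOSL2 and MAFF and in 9.24% of genes.

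The other bZIP genes that can pair with AP-1 proteins were followed through a list of 12. Of these, 9 were tested, 4 fell, 0 rose and 5 were not called (median log2 fold change -0.14), where 54.8% of all tested genes were called. The 2 small Maf genes related to MAFF fell, MAFG from 11.2 ± 0.0379 to 8.99 ± 0.454 FPKM (log2 fold change -0.32, edgeR adjusted p = 1.80e-06) and MAFK from 3.91 ± 0.193 to 3.01 ± 0.225 FPKM (-0.38, edgeR adjusted p = 0.000346; SD, n = 3). MAFA and CREB5 were the other 2 that fell, both under 1 FPKM. CREB5 went from 0.39, 0.44 and 0.4 FPKM to 0.05, 0.08 and 0.06 FPKM (edgeR adjusted p = 3.51e-12, log2 fold change -2.63 ± 0.221 standard error). ATF2, the partner of JUN at CRE-like words, was at 12.7 ± 0.410 and 12.6 ± 0.499 FPKM (log2 fold change -0.013, edgeR adjusted p = 0.829), and its relative ATF7 at 4.16 ± 0.260 and 4.24 ± 0.221 FPKM (0.022, edgeR adjusted p = 0.786; SD, n = 3). MAFG, MAFK, MAFA and CREB5 were singled out after their values were seen.

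Of 24 kinases of the MAP kinase cascades, which phosphorylate AP-1 proteins or act upstream of them, 22 were tested, 8 rose, 5 fell and 9 were not called (median 0.084). Thus 13 of 22 were called in either direction, close to the 54.8% of all tested genes. MAPK8, which encodes the kinase JNK1 that activates JUN, fell from 10.39, 10.48 and 10.42 FPKM to 6.03, 5.52 and 5.86 FPKM (edgeR adjusted p = 3.91e-17, log2 fold change -0.85 ± 0.045 standard error). RPS6KA2, a ribosomal S6 kinase below ERK, fell from 1.75 ± 0.112 to 1.04 ± 0.0200 FPKM (log2 fold change -0.75, edgeR adjusted p = 4.48e-08). MAPK12 rose from 2.97 ± 0.316 to 4.597 ± 0.197 FPKM (0.63, edgeR adjusted p = 4.80e-10; SD, n = 3). MAP3K7, at 9.59 ± 0.186 and 9.23 ± 0.110 FPKM (edgeR adjusted p = 0.253), and MAP2K1, at 8.69 ± 0.0872 and 9.22 ± 0.405 FPKM (edgeR adjusted p = 0.162; SD, n = 3), were not called. Genes that overlap MAP2K1 held 37.5% as many counts.

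All 15 transcription factors and coactivators that act on early gene promoters were tested, of which 7 fell, 2 rose and 6 were not called (median -0.087). The 9 of 15 called stand beside 54.8% of all tested genes. The 2 that rose, ELK3 and SRF, were named after their values were seen. The call of SRF, the serum response factor (edgeR adjusted p = 0.0447), was lost under 11 of the 13 alternatives, the replicate block among them (edgeR adjusted p = 0.0513), whereas ELK3 was called under each of the 13. MEF2A, a factor that binds the JUN promoter, fell from 15.1, 16.29 and 15.23 FPKM to 8.55, 9.49 and 8.62 FPKM (edgeR adjusted p = 3.43e-16, log2 fold change -0.81 ± 0.047 standard error). Those not called included ATF1, at 19.99 ± 0.946 and 19.6 ± 0.325 FPKM (edgeR adjusted p = 0.624), and the ternary complex factor ELK1, at 12.3 ± 0.971 and 12.0 ± 0.785 FPKM (edgeR adjusted p = 0.548; SD, n = 3).

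Of 14 genes that turn over AP-1 transcripts or proteins, 5 fell, 4 rose and 5 were not called (median -0.028), so that 9 of 14 were called where 54.8% of all tested genes were. ZFP36L2, which binds AU-rich words and speeds transcript decay, fell from 14.6 ± 0.633 to 9.07 ± 0.441 FPKM (edgeR adjusted p = 1.95e-12, log2 fold change -0.69 ± 0.057 standard error; SD, n = 3). Its relative ZFP36L1, the more abundant at 77.4 ± 0.583 and 82.3 ± 0.815 FPKM, was not called (0.084, edgeR adjusted p = 0.0701; SD, n = 3).

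The list of textbook AP-1 target genes held more genes that fell than rose. Of 28 genes, 19 were tested, and 14 of these fell, 1 rose and 4 were not called (median -0.30). Among all tested genes, 27.0% were called lower and 27.8% higher. As the list was chosen with earlier results of these data known, nothing is read from these counts. The 9 not tested had too few counts, among them the collagenase and stromelysin genes MMP1, MMP3, MMP10 and MMP13. CXCL8, a neutrophil chemokine, fell from 3.24, 3.75 and 3.31 FPKM to 0.39, 0.55 and 0.56 FPKM (edgeR adjusted p = 1.28e-15, log2 fold change -2.78 ± 0.170 standard error). HBEGF, a ligand of the EGF receptor, fell from 8.79, 9.76 and 7.92 to 3.24, 3.37 and 3.2 FPKM (edgeR adjusted p = 1.10e-15, log2 fold change -1.43 ± 0.087 standard error). For both genes the gap was wide compared with the spread, which follows from the choice. The rule that named them asks for a call and at least a 1.5-fold change.

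DUSP1, a phosphatase of MAP kinases, fell from 8.95 ± 0.308 to 4.06 ± 0.365 FPKM (log2 fold change -1.14, edgeR adjusted p = 2.28e-12). ITGA2, a collagen-binding integrin subunit, fell from 20.7 ± 1.61 to 10.02 ± 0.0954 FPKM (-1.05, edgeR adjusted p = 2.54e-19), and VEGFA, an angiogenic factor, from 12.8 ± 0.350 to 7.46 ± 0.224 FPKM (-0.78, edgeR adjusted p = 3.86e-17; SD, n = 3). The 1 gene that rose was HMGA1, an architectural chromatin protein, from 444 ± 8.51 to 548 ± 13.9 FPKM (0.30, edgeR adjusted p = 6.04e-07; SD, n = 3), named after its value was seen. CD44, at 53.8 ± 1.31 and 51.2 ± 1.47 FPKM (edgeR adjusted p = 0.131), and IL11, at 0.450 ± 0.185 and 0.340 ± 0.132 FPKM (edgeR adjusted p = 0.307; SD, n = 3), were not called. The remaining target genes that fell, such as PLAUR, did so by less than 1.5-fold. The part of the AP-1 members in these differences was not tested.

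**Figure D4:**
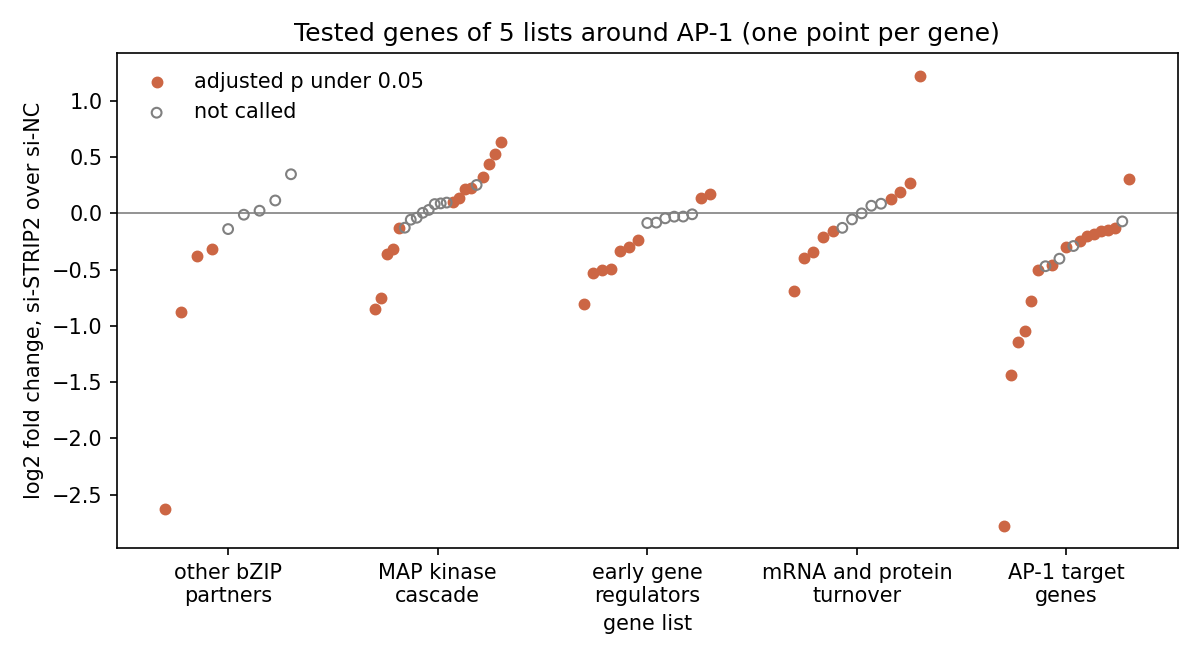
Log2 fold change (si-STRIP2 over si-NC) of each tested gene of 5 lists, filled where edgeR's adjusted p was under 0.05 and open where not. The lists were chosen with earlier results of these data known. In the list of AP-1 target genes 14 of 19 points are filled and below 0 and 1 is filled and above it. Of 22 points in the MAP kinase list, 8 are filled above 0 and 5 below. Over all tested genes, 27.0% were called lower and 27.8% higher, and nothing is read from these counts.

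Genes whose pattern over the 6 libraries was most like that of 3 members were sought among 11298 genes, by the root mean square difference of centred log2 CPM (library-scaled counts). For JUN these were SPX (0.061), SPRR2D (0.177) and IL20RB (0.202), whose log2 fold changes were -2.65, -2.85 and -2.31. Genes overlapping IL20RB held 136% as many counts. ATF3 was most like SLC35F6 (0.029), MIA2 (0.037) and ARHGEF37 (0.041), with log2 fold changes of -0.92, -0.92 and -0.95, where the gene overlapping SLC35F6 held 54.2% as many counts. FOSL1 was most like RPL7A (0.021), MRPL9 (0.024) and PUF60 (0.025), at 0.40, 0.42 and 0.39. The distance to the third gene was 0.202 for JUN, against 0.041 for ATF3 and 0.025 for FOSL1. This distance takes in the difference between groups, so that a gene with a like log2 fold change scores as near.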

How the data were processed

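Total RNA of 6 HCT116 samples was sequenced after poly(A) selection and directional library preparation, per the labels' protocols. The submitters' processing notes name cutadapt 1.9.1, HISAT2 2.2.1, HTSeq 0.6.1 and GRCh38.p13, while the annotation release and any strand setting of the counting are not given in the sources used here. The authors deposited 1 table with a raw count and an FPKM value per gene and library, per the file headers. The deposited FPKM values equal count over exonic size and column total within 0.005. The deposited exonic sizes served that check.

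Groups were taken from the sample titles. Counts were fitted in R 4.3.3 with edgeR 4.0.16: filterByExpr (minimum count 10, 15687 genes kept), TMM, a quasi-likelihood model with group as the only term, and 2-sided tests with Benjamini-Hochberg adjustment over all tested genes. Standard errors are the absolute log2 fold change over the square root of F. The alternatives were other size factors, DESeq2 1.42.0, other filters, limma 3.58.1 on log2(FPKM + 1) or log2(FPKM + 0.1), the replicate number as a block, and each library left out. The edgeR script was tested on simulated data. Total counts of 17184963 to 21721218 limit the precision of low genes such as BATF3.

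The members and gene lists were chosen with earlier results of these data known. From each list, text names up to 5 called genes with at least 1 FPKM and a 1.5-fold change, the largest first, and up to 2 not called, the most abundant first. For JUN, FOSL1 and ATF3 it names the 3 genes of most similar pattern. Other genes were chosen after their values were seen. A gene to which this rule applies is not reported here.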

Additional observations from a re-analysis of the deposited data

How the results depend on the processing

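Results were recomputed under 13 alternatives. Every member that was tested kept its direction in each of them, and BATF3 was not tested under the 3 settings that ask for at least 1 FPKM in 3 libraries. The median log2 fold change of the members was -0.97 with that filter in edgeR, -0.73 with limma on log2(FPKM + 1) and -0.94 with limma on log2(FPKM + 0.1), against -0.85. All 3 cover 9 members, and a pseudocount of 1 shrinks low genes, so that FOSB was at -1.58, JUN at -2.21 and MAFF at -0.73. With a library left out, the median ranged from -0.87 to -0.82, calls across the table from 7690 to 8494, those higher from 3866 to 4244, those lower from 3824 to 4250 and calls in the 5 lists from 46 to 50. JUNB ranged from -0.43 to -0.26 and FOSL1 from 0.37 to 0.46 in these fits. Same-numbered libraries did not deviate together (correlations of -0.086, -0.013 and -0.072 across genes), while si-NC 3 and si-STRIP2 1 had a correlation of 0.11. No pairing by number was thus seen, though 3 libraries per group are too few to exclude it. With the replicate number as a block, 8293 genes were called in place of 8599 and the members' median stayed at -0.85. The signs of genes that were not called are uncertain: leaving out libraries moved ATF2 from -0.044 to 0.022, ATF7 from -0.029 to 0.058 and ELK1 from -0.10 to 0.024. CD44 was called under 2 of the 13 alternatives, DESeq2 among them (adjusted p = 0.0451), and ZFP36L1 by limma (adjusted p = 0.0297). Among the lists, 5 MAP kinase genes rose under DESeq2 and under both limma settings in place of 8, 2 other bZIP partners fell in place of 4 where at least 1 FPKM was asked for and 5 of that list were tested, and 1 early gene regulator rose in place of 2 under 11 of the 13 alternatives. The median of all tested genes stayed between 0.0036 and 0.046. The cause was not tested.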
